A study of Homo sapiens with 6 samples.

Results

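Metallothioneins, their transcription factor MTF1 and the 2 families of zinc transporters were examined in C42 cells, a prostate cancer cell line of human origin (C4-2, derived from LNCaP). The genes were taken by name from the count table: the MT1 genes with a single letter, MT2A, MTF1, and every numbered SLC30A and SLC39A gene. This gave 28 of 31413 genes, namely 4 metallothioneins, MTF1, 10 SLC30A genes and 13 SLC39A genes. RNA was sequenced from 3 libraries of cells with an shRNA against NSD2 (shNSD2, replicates 1, 2 and 3) and 3 libraries of cells with a control shRNA (shCTR, replicates 1, 2 and 4), all grown in RPMI medium with serum. NSD2, also called WHSC1, is a methyltransferase of histone H3 lysine 36, and the labels set the shNSD2 cells against the shCTR cells. The labels do not name the shRNA sequence, whether the cells were a clone or a pool, or whether the libraries are separate cultures. Each p-value therefore reflects spread among libraries that could be technical.

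Zinc inside cells is kept within narrow limits. Metallothioneins are small cysteine-rich cytosolic proteins that bind zinc and copper and sequester cadmium. The transcription factor MTF1 senses free zinc and switches on metallothionein genes and the exporter gene SLC30A1 through metal response elements in their promoters. SLC30A proteins, also called ZnT, move zinc out of the cytosol, across the plasma membrane or into organelles. SLC39A proteins, also called ZIP, move it into the cytosol. Normal prostate epithelium is known for its very high zinc content, which is lower in prostate cancer.

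The promoters of MT2A, MT1X and SLC30A1 are shown because MTF1 is known to act on these 3 genes and because their transcripts did not move in 1 direction here. Each run is the 250 bases before the RefSeq start site (build GRCh38.p14), read 5′ to 3′ on the gene's strand. Capitals mark matches on either strand to the core of the metal response element, searched as TGCACNC and TGCGCNC. MT2A lies at chr16:56608334-56608583 on the plus strand, MT1X at chr16:56682220-56682469 on the plus strand and SLC30A1 at chr1:211579162-211579411 on the minus strand.
MT2A: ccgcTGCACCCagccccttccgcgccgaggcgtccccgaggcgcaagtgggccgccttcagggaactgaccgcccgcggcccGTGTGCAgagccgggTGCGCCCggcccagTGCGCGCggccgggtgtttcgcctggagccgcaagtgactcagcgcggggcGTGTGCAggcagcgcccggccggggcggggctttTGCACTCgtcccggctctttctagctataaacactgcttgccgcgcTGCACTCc
MT1X: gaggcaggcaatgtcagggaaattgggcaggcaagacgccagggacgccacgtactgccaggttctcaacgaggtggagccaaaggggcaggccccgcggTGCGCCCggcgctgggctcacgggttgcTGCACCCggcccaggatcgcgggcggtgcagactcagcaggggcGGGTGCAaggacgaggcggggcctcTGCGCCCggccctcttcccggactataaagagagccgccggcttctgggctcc
SLC30A1: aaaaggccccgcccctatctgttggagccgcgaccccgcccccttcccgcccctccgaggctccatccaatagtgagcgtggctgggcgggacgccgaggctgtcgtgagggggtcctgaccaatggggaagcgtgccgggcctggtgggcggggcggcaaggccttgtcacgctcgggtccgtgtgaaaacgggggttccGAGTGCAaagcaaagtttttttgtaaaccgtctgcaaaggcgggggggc
MT2A held 7 matches, MT1X held 4 and SLC30A1 held 1, and no match overlapped another. These counts can depend on the start site used, since GENCODE places the starts elsewhere. The MT2A window lay inside the GENCODE span of its gene, which begins at 56608199. The MT1X window ran across its GENCODE start at 56682424. The SLC30A1 window lay wholly upstream of its GENCODE start at 211578742, and the bases between were not searched. Of 27305 promoter windows of this length, 24.7% held at least 1 match and 0.366% held at least 4. Promoter sequence was matched for 23 of the 28 genes, and 9 of these (39.1%) held at least 1 match. SLC30A2 had 3, SLC30A3 had 2, and SLC30A4, SLC30A6, SLC39A3 and SLC39A6 had 1 each. A match is a run of letters in this window, and no binding was measured.

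Total counts ran from 19412896 to 20665494 per library, and 3 counts in a library, taken as the floor, came to 0.145 to 0.155 CPM (counts per 1000000 counts, scaled by TMM). NSD2 itself stood at 85.3, 86.4 and 89.7 CPM in the shNSD2 libraries and at 219, 223 and 200.1 CPM in the shCTR libraries (log2 fold change -1.30, SE 0.0870, edgeR adjusted p = 8.03e-05). The luminal prostate markers KLK2, KLK3, FOLH1, HOXB13, KRT8 and KRT18 lay between 205 and 7038 CPM in every library. Among them KLK2 was lower in shNSD2 (log2 fold change -0.37, edgeR adjusted p = 0.0244), while KRT8 and KRT18 were higher (0.41 and 0.48, edgeR adjusted p = 0.0256 and 0.0332). Of the markers of other cells, PECAM1 had at most 1 count in a library, CD68 stayed at or below 0.714 CPM and KRT14 at or below 1.61 CPM, while PDGFRB reached 2.57 CPM. VWF was at 7.24 to 8.06 CPM in shNSD2 libraries and 5.47 to 5.72 CPM in shCTR libraries (log2 fold change 0.43, edgeR adjusted p = 0.0273), and PTPRC, COL1A2 and KRT5 were not analysed here. The part of these marker differences in the results was not tested.

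Metallothionein transcripts were higher in the shNSD2 libraries, while 12 zinc transporter transcripts were lower and 4 were higher. Of the 28 genes, 25 had enough counts to be tested and 19 passed an adjusted p under 0.05, 7 higher and 12 lower. Over all 17160 genes tested, 15.5% were called higher and 15.2% lower, or 30.7% in either direction. Among the 25 genes the shares were 28.0% and 48.0%. SLC30A2, SLC30A3 and SLC30A10 passed the low-count filter only through the group where they were high, so their calls follow in part from that filter. Of the other 22 tested genes, which reached its cutoff in every library, 5 were higher and 11 lower. The median log2 fold change was -0.25 over the 25 genes and 0.01 over all genes tested. All 3 tested metallothioneins were higher, SLC30A genes were 2 higher and 6 lower of 9 tested, SLC39A genes 2 higher and 6 lower of 12 tested, and MTF1 was not called. The values come from whole cultures, in which fewer cells with a transcript and less RNA per cell cannot be told apart. Every shNSD2 value was above every shCTR value for 7 of the 25 genes and below for 12, beside 24% and 22.8% of all genes tested. When a library was left out, the lower genes numbered as few as 7, without shNSD2 3, where 7.49% of all genes were lower, and as many as 14, without shCTR 4, where 22.6% were.

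**Figure D1:**
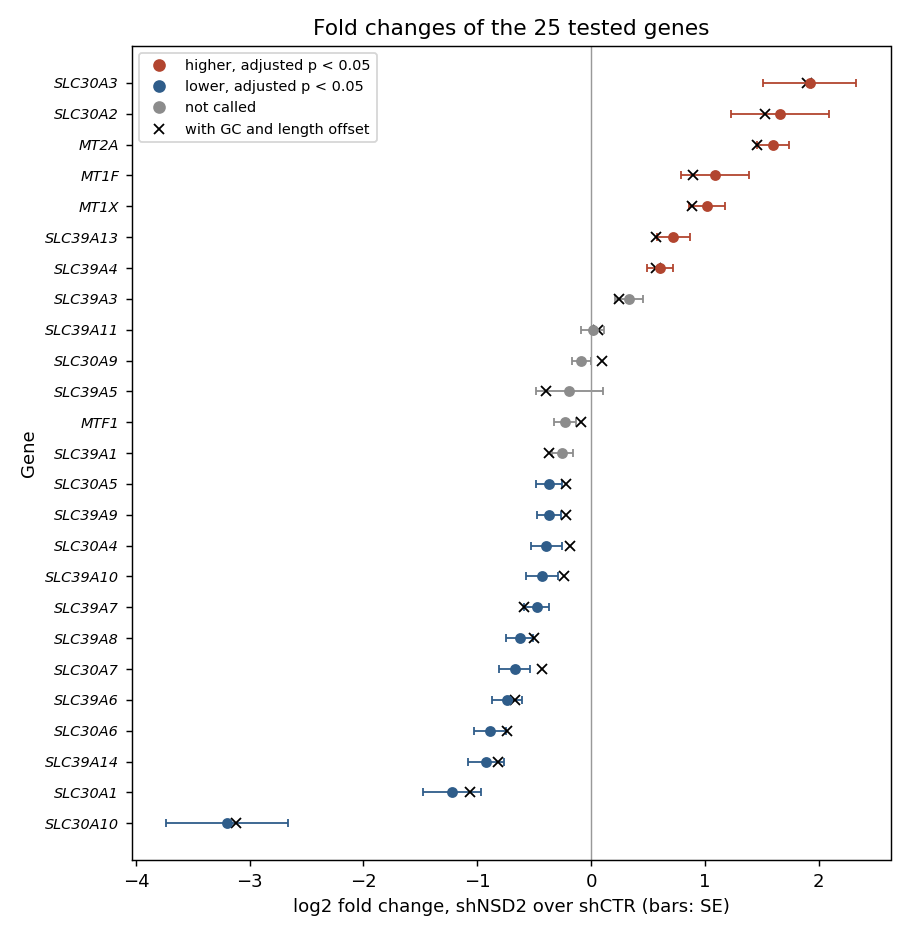
Log2 fold change of shNSD2 over shCTR (horizontal axis) for the 25 tested genes (vertical axis). Circles are the edgeR values with SE bars, coloured by call, and crosses are the values after an offset for GC content and exon length. SLC30A3 is at the top with 1.92 and SLC30A10 at the bottom with -3.20.

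MT2A, the most abundant of the 4 metallothioneins in these cells, showed the smallest adjusted p of the 25 genes. It was at 123, 94.8 and 107 CPM in the shNSD2 libraries, against 28.8, 41.0 and 37.2 CPM in the shCTR libraries. The lowest shNSD2 library was well above the highest control, and shCTR 4 lay among the controls. Its mean was 108 ± 13.9 CPM in shNSD2 and 35.7 ± 6.28 CPM in shCTR (SD, n = 3 each), 3.03-fold higher (log2 fold change 1.60, SE 0.138, edgeR adjusted p = 1.99e-04). MT2A (ENSG00000125148) spans bases 56608199 to 56609497 of chromosome 16 (GRCh38). Over libraries alone, the exact permutation p (two-sided) was 0.1 for MT2A, and a design of 3 against 3 can reach no smaller value.

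MT1X, a second zinc-binding isoform from the same gene cluster, rose as well. It had 12.4, 9.14 and 12.3 CPM in shNSD2 libraries, against 4.79, 6.17 and 5.68 CPM in shCTR libraries, 2.03-fold higher (log2 fold change 1.02, SE 0.158, edgeR adjusted p = 0.00216). The groups did not overlap, and the call was kept whichever library was left out. MT1F, a rarer member, had 40, 25 and 30 counts in shNSD2 libraries and 12, 21 and 12 counts in shCTR libraries, or 2.04, 1.28 and 1.45 CPM against 0.587, 1.01 and 0.626 CPM. Its groups were also apart, with a log2 fold change of 1.09 (SE 0.302, edgeR adjusted p = 0.0219). The MT1F call was lost without shNSD2 1 (adjusted p = 0.0834), shNSD2 3 (0.0580) or shCTR 1 (0.0728). MT1G was near absent, with 1, 3 and 0 counts in shNSD2 libraries and 1, 0 and 0 counts in shCTR libraries, and was not tested.

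**Figure D2:**
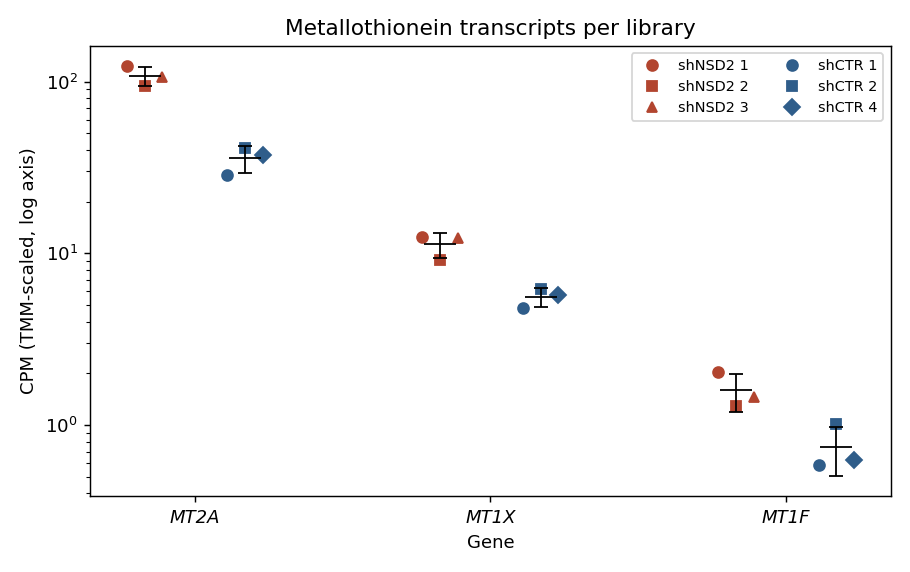
CPM of MT2A, MT1X and MT1F (log axis) in each library, shNSD2 in red and shCTR in blue. Black bars give the mean and SD over 3 libraries. For each gene every shNSD2 library is above every shCTR library, and MT2A is highest at 94.8 to 123 CPM in shNSD2 against 28.8 to 41.0 CPM in shCTR.

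Metallothionein genes resemble each other, so reads may be split among copies. Of the runs of 50 bases in the coding transcript, 4.88% of MT2A, 3.59% of MT1F and 14.3% of MT1G also occurred in transcripts of other genes, mostly other metallothioneins and their pseudogenes. For MT1X the share was 55.8%, with AC026461.1, an annotated processed transcript that overlaps it on the same strand. The summed counts of the 4 rows do not depend on how reads were split between them. The sum was 137, 105 and 120.5 CPM in shNSD2 libraries and 34.2, 48.2 and 43.5 CPM in shCTR libraries, a ratio of 2.88. MT2A took 88.6% to 90.0% of the summed counts in shNSD2 libraries and 84.1% to 85.5% in shCTR libraries, while MT1X took 8.67% to 10.2% in shNSD2 libraries and 12.8% to 14.0% in shCTR libraries. The sum therefore followed MT2A, whose share was higher in every shNSD2 library. The related pseudogenes MT1XP1, MT1P1 and MT1DP, which share sequence with these genes, stayed at or below 0.582 CPM.

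MTF1, the zinc sensor that activates metallothionein genes, did not pass the test. Its transcript was at 54.4, 52.3 and 44.2 CPM in shNSD2 libraries and 62.6, 57.9 and 56.0 CPM in shCTR libraries (log2 fold change -0.23, SE 0.0978, edgeR adjusted p = 0.0998). All 3 shNSD2 libraries were below the controls by a small margin. Without shCTR 4, where 46.5% of all genes were called, the edgeR adjusted p was 0.0308. Of 16 alternatives this was the only 1 that called MTF1. With each other library left out the edgeR adjusted p was between 0.0976 and 0.345. With an offset for GC content and exon length the log2 fold change was -0.09 (edgeR adjusted p = 0.436).

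The exporter SLC30A1, the other well-known target of MTF1, was lower. It had 31.2, 24.9 and 21.8 CPM in shNSD2 libraries, against 82.2, 64.2 and 35.1 CPM in shCTR libraries, 2.34-fold lower (log2 fold change -1.22, SE 0.252, edgeR adjusted p = 0.00671). The groups did not overlap, but the controls spread widely and shCTR 4 lay close to the highest shNSD2 library. On the log2 scale (0.5 CPM added) shCTR 4 stood at 70.1% of the way from shCTR 1 and 2 to the shNSD2 mean. The log2 fold change of SLC30A1 was between -1.50 and -0.95 with a library left out, and each of these fits called it. SLC30A1 lies on chromosome 1 from 211571568 to 211578742.

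SLC30A10, which exports manganese across the plasma membrane, was counted mainly in the controls. It had 1, 3 and 2 counts in shNSD2 libraries and 30, 17 and 12 counts in shCTR libraries. All shNSD2 values lay near or under the floor, so the fitted log2 fold change of -3.20 (SE 0.533) is loosely set, and the gene passed the low-count filter through the controls alone. The ratio of summed counts was 0.103 with a 95% exact interval of 0.0365 to 0.239, which covers counting error only. At 0.626 to 1.47 CPM in the controls the transcript was rare there too.

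SLC30A5, SLC30A6 and SLC30A7 of the early secretory pathway were each called lower, with SLC30A5 near the threshold. SLC30A6, which pairs with SLC30A5 in the early secretory pathway, had 41.1, 39.4 and 37.1 CPM in shNSD2 libraries and 88.0, 73.6 and 56.1 CPM in shCTR libraries (log2 fold change -0.89, SE 0.141, edgeR adjusted p = 0.00240). SLC30A7 of the Golgi had 60.2, 65.2 and 56.6 CPM in shNSD2 libraries and 116, 98.0 and 75.9 CPM in shCTR libraries (log2 fold change -0.67, SE 0.137, edgeR adjusted p = 0.00643). Neither gene overlapped between groups, and shCTR 4 was the lowest control for both. SLC30A5 itself had 90.7, 96.9 and 82.0 CPM in shNSD2 libraries and 136, 106 and 106 CPM in shCTR libraries (log2 fold change -0.37, SE 0.116, edgeR adjusted p = 0.0361). The SLC30A5 call was kept without shCTR 4 only, with adjusted p-values of 0.0566 to 0.141 without any other library.

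SLC30A4, which fills endosomes and lysosomes, was at the threshold. It had 151, 152 and 134 CPM in shNSD2 libraries and 218, 206 and 149 CPM in shCTR libraries (log2 fold change -0.39, SE 0.136, edgeR adjusted p = 0.0499). The groups overlapped, since shCTR 4 was below 2 of the 3 shNSD2 libraries, and the call was lost in each fit that kept shCTR 4 and left out another library (adjusted p = 0.102 to 0.173). SLC30A9, the mitochondrial exporter, overlapped between groups at 78.9 to 87.8 CPM in shNSD2 and 84.0 to 93.0 CPM in shCTR (log2 fold change -0.09, edgeR adjusted p = 0.457).

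The 2 SLC30A genes with higher counts in shNSD2 were rare transcripts, which passed the low-count filter through the shNSD2 libraries alone. SLC30A3, the vesicular zinc transporter of synapses, had 34, 19 and 19 counts in shNSD2 libraries and 8, 8 and 3 counts in shCTR libraries (log2 fold change 1.92, SE 0.408). SLC30A2, which fills secretory vesicles and is known for zinc in milk, had 25, 17 and 12 counts in shNSD2 libraries and 3, 7 and 7 counts in shCTR libraries (log2 fold change 1.66, SE 0.430). Neither overlapped between groups, which is no separate support, since high shNSD2 counts let these genes into the test. The ratio of summed counts was 3.85 for SLC30A3 (95% exact interval 2.30 to 6.76) and 3.23 for SLC30A2 (1.84 to 5.94). These intervals cover counting error only, and the ratios share the limit of that filter. The SLC30A2 call was lost without shNSD2 1 (edgeR adjusted p = 0.0673) or shCTR 1 (0.0587). SLC30A8, the transporter of insulin granules, had at most 2 counts in a library and was not tested.

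The related importers SLC39A14 and SLC39A8 fell. SLC39A14, which carries zinc, manganese and iron, had 250.2, 248 and 206 CPM in shNSD2 libraries and 552, 440.0 and 344 CPM in shCTR libraries, 1.90-fold lower (log2 fold change -0.92, SE 0.160, edgeR adjusted p = 0.00342). SLC39A8, which also takes up manganese and cadmium, had 364, 381 and 347 CPM in shNSD2 libraries and 657, 517 and 511 CPM in shCTR libraries (log2 fold change -0.63, SE 0.119, edgeR adjusted p = 0.00487). In both genes every shNSD2 library was below every control, and both calls held whichever library was left out.

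SLC39A6, known as LIV-1, was the most abundant transporter per length of merged exons in the controls. SLC39A8 was ahead of SLC39A6 in plain CPM and per length of the longest coding transcript. SLC39A6 had 235, 245 and 201 CPM in shNSD2 libraries and 447, 362 and 328 CPM in shCTR libraries, 1.67-fold lower (log2 fold change -0.74, SE 0.130, edgeR adjusted p = 0.00370). SLC39A10, which pairs with SLC39A6 at the plasma membrane, had 47.3, 68.9 and 56.8 CPM in shNSD2 libraries and 88.2, 78.0 and 67.1 CPM in shCTR libraries (log2 fold change -0.43, SE 0.140, edgeR adjusted p = 0.0389). SLC39A6 was apart between groups, while shNSD2 2 overlapped shCTR 4 for SLC39A10. The SLC39A10 call was lost without shNSD2 1 (adjusted p = 0.140), shNSD2 3 (0.117), shCTR 1 (0.109) or shCTR 2 (0.105).

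Importers of internal membranes went both ways. SLC39A7, which releases zinc from the endoplasmic reticulum, had 119.6, 138 and 112 CPM in shNSD2 libraries and 193, 159.5 and 161 CPM in shCTR libraries (log2 fold change -0.48, SE 0.111, edgeR adjusted p = 0.0112; 0.0595 without shNSD2 3). SLC39A9, found at the Golgi, had 160.2, 164 and 139 CPM in shNSD2 libraries and 222, 191 and 186 CPM in shCTR libraries (log2 fold change -0.37, SE 0.104, edgeR adjusted p = 0.0234). Both were below every control, although the SLC39A9 call was kept without shCTR 4 only, with adjusted p-values of 0.0563 to 0.110 in the other fits with a library left out. SLC39A13, a transporter of intracellular vesicles needed in connective tissue, rose to 25.8, 25.3 and 29.6 CPM in shNSD2 libraries, against 13.8, 14.5 and 20.6 CPM in shCTR libraries (log2 fold change 0.72, SE 0.147, edgeR adjusted p = 0.00633). SLC39A11 was at 37.2 to 42.9 CPM in shNSD2 and 36.1 to 45.2 CPM in shCTR (log2 fold change 0.01, edgeR adjusted p = 0.927).

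SLC39A4, the zinc importer of the intestine whose loss causes acrodermatitis enteropathica, rose. It had 56.0, 54.9 and 58.0 CPM in shNSD2 libraries and 32.3, 34.8 and 44.3 CPM in shCTR libraries, 1.52-fold higher without overlap (log2 fold change 0.60, SE 0.114, edgeR adjusted p = 0.00475). The calls of SLC39A4 and SLC39A13 held in each fit with a library left out, and shCTR 4 was the highest control for both.

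SLC39A1 and SLC39A3, plasma membrane importers, did not pass the test. SLC39A1 had 112, 124 and 122 CPM in shNSD2 libraries and 148, 131 and 148 CPM in shCTR libraries (log2 fold change -0.25, SE 0.0906, edgeR adjusted p = 0.0571). Its reads may be shared, since 71.3% of the 50-base runs in its coding transcript also occur in the overlapping annotated gene AL358472.7. SLC39A3 had 65.7, 72.8 and 75.1 CPM in shNSD2 libraries and 53.6, 47.4 and 68.5 CPM in shCTR libraries (log2 fold change 0.33, SE 0.127, edgeR adjusted p = 0.0675). shCTR 4 was within the shNSD2 range of SLC39A3, and without that library its log2 fold change was 0.50 (adjusted p = 2.76e-04). Without shCTR 4 the adjusted p of SLC39A1 was 0.0443. SLC39A5 overlapped between groups at 0.616 to 0.969 CPM in shNSD2 and 0.771 to 1.03 CPM in shCTR (edgeR adjusted p = 0.644), and SLC39A2, with at most 8 counts in a library, was not tested.

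**Figure D3:**
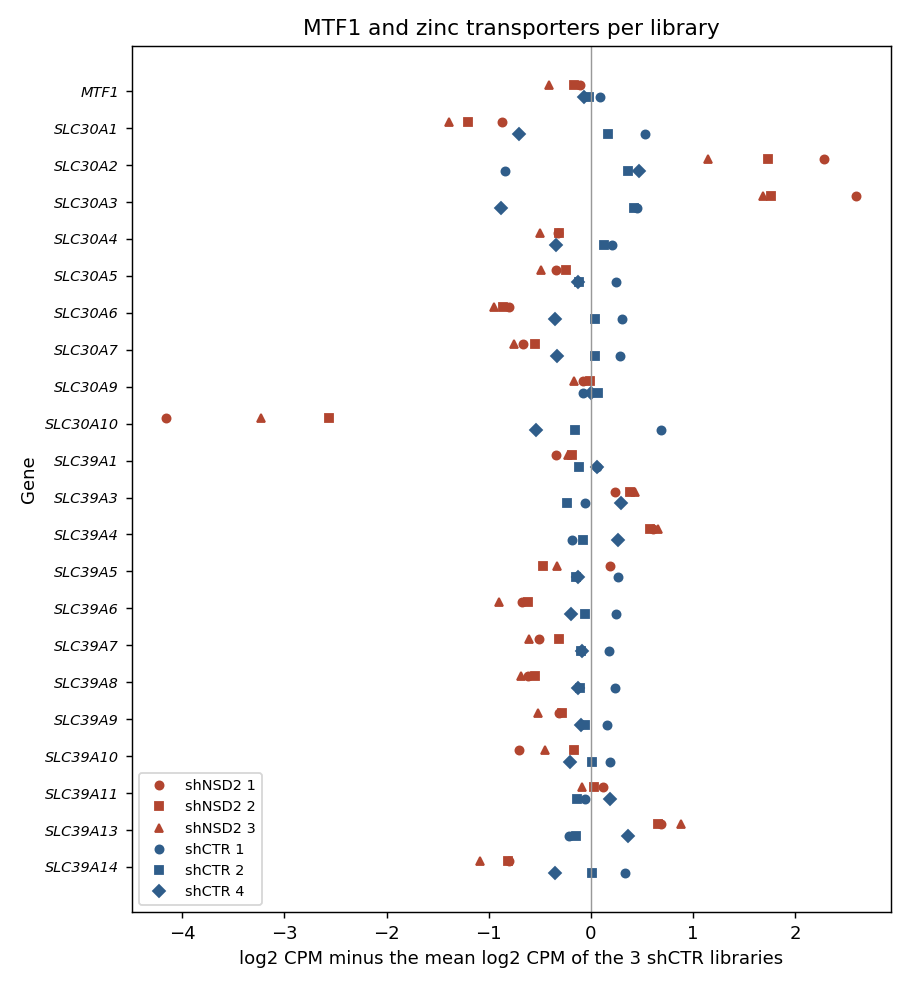
Log2 CPM of MTF1 and each tested transporter (vertical axis) in each library, minus the mean log2 CPM of the 3 shCTR libraries (horizontal axis), with shNSD2 in red and shCTR in blue. The red points lie left of 0 for the genes called lower and right of 0 for SLC30A2, SLC30A3, SLC39A4 and SLC39A13, and the blue diamond of shCTR 4 is the control nearest to the shNSD2 mean in 11 of the 12 genes called lower.

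The position of shCTR 4 moved with these calls. Compared in pairs, shCTR 4 differed from shCTR 1 and 2 by a chi-square per degree of freedom of 42.7 and 20.4. Against shNSD2 1, 2 and 3 its values were 29.1, 16.2 and 24.4, while shCTR 1 and 2 differed by 10.8. By this measure shCTR 4 was nearer to shNSD2 2 than to either other control. The cause was not tested. Among the 12 genes called lower, shCTR 4 was the control nearest to the shNSD2 mean in 11, or 91.7%, beside 77.2% of all genes called lower. Among the 7 called higher it was nearest in 3, or 42.9%, beside 72.2% of all genes called higher. The metallothionein differences were as large without it, at a log2 ratio of summed CPM of 1.55 without shCTR 4 and 1.53 with it.

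Several transporter genes share exon bases with a gene on the opposite strand, and without a known strand setting their reads cannot be told apart there. SLC39A9 shared 373 bases with ERH, SLC39A7 shared 244 with RXRB, SLC39A1 shared 280 with CREB3L4, SLC30A4 shared 215 with HMGN2P46 and SLC30A5 shared 532 with AC010273.1. The overlaps of SLC39A4, SLC39A5 and SLC30A3 with such genes were 180 bases or shorter.

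Summed over each family, transporter transcripts were lower as well. The 13 SLC39A genes came to 1479, 1564 and 1385 CPM in shNSD2 libraries and 2446, 2012 and 1923 CPM in shCTR libraries, a ratio of 0.694. The 10 SLC30A genes came to 461, 468 and 412 CPM in shNSD2 libraries and 726, 642 and 511 CPM in shCTR libraries, a ratio of 0.713. Neither sum overlapped between groups, and the most abundant genes weigh most in each.

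The order of levels per length of merged exons changed at its head. The order among transporters depends on the length used. Merged exons of SLC39A8 run to 6480 bases against 4032 in its longest coding transcript, and those of SLC39A6 to 3682 against 3543. Divided by the coding lengths instead, SLC39A8 stood above SLC39A6 in every library. In CPM per kilobase of merged exons, MT2A had 83.2 ± 10.7 in shNSD2 libraries, above SLC39A6 with 61.7 ± 6.27, SLC39A8 with 56.2 ± 2.68 and SLC39A7 with 43.2 ± 4.67 (SD, n = 3). In shCTR libraries SLC39A6 led with 103 ± 16.7, before SLC39A8 with 86.7 ± 12.7, SLC39A14 with 64.2 ± 15.0 and SLC39A7 with 60.2 ± 6.72, while MT2A had 27.5 ± 4.83 (SD, n = 3). The ranges of mean ± SD overlapped for SLC39A6 and SLC39A8 in either group, and for SLC39A14 and SLC39A7 in shCTR. These SDs are spreads between libraries, while both genes of a pair were measured in the same libraries. By merged exons SLC39A6 was above SLC39A8 within each library, while SLC39A14 and SLC39A7 changed order among the shCTR libraries. No difference between genes was tested. MT1X was at 6.35 CPM per kilobase in shNSD2 and 3.13 in shCTR, and SLC30A2, SLC30A3 and SLC30A10 were under 0.3 in both groups.

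**Figure D4:**
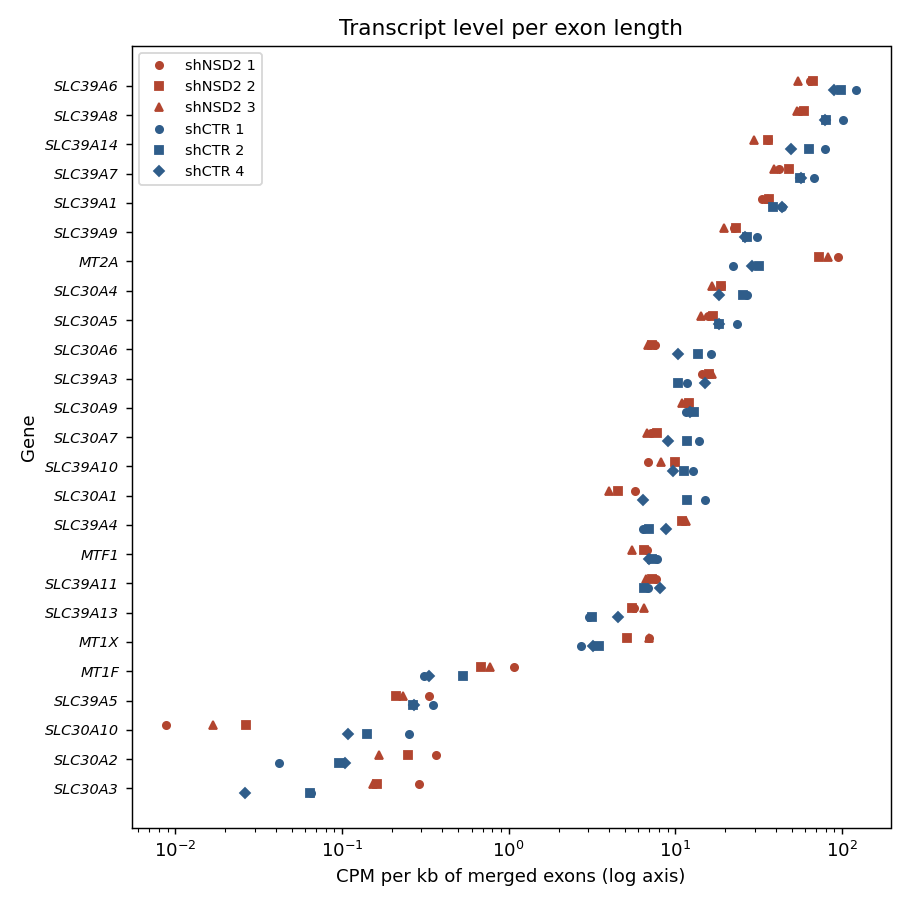
CPM per kilobase of merged exons (log axis) of the 25 tested genes in each library, ordered by the shCTR mean, shNSD2 in red and shCTR in blue. MT2A stands at 83.2 on average in shNSD2 and 27.5 in shCTR, while SLC39A6 stands at 61.7 and 103.

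The genes that rose and those that fell differed in base composition. The longest transcripts of the 7 higher genes had 53.7% to 62.8% GC with a median of 56.4%, and those of the 12 lower genes 36.2% to 55.1% with a median of 40.8%. The same ran through the table, with a median of 54.3% for all genes called higher and 44.8% for all called lower. Over deciles of GC content the median log2 fold change of all genes tested went from -0.12 in the lowest to 0.20 in the highest. With an offset that removes each library's trend on GC content and exon length, the same 7 genes were called higher and 9 genes were called lower, beside 16.9% and 14.2% of all genes. MT2A then had a log2 fold change of 1.45, MT1X 0.89, SLC30A1 -1.06, SLC30A6 -0.73 and SLC39A14 -0.82. The calls of SLC30A4, SLC30A5, SLC39A9 and SLC39A10 were lost under the offset (adjusted p = 0.213, 0.125, 0.0891 and 0.153), and SLC39A1 was called lower (log2 fold change -0.37, adjusted p = 0.0104).

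**Figure D5:**
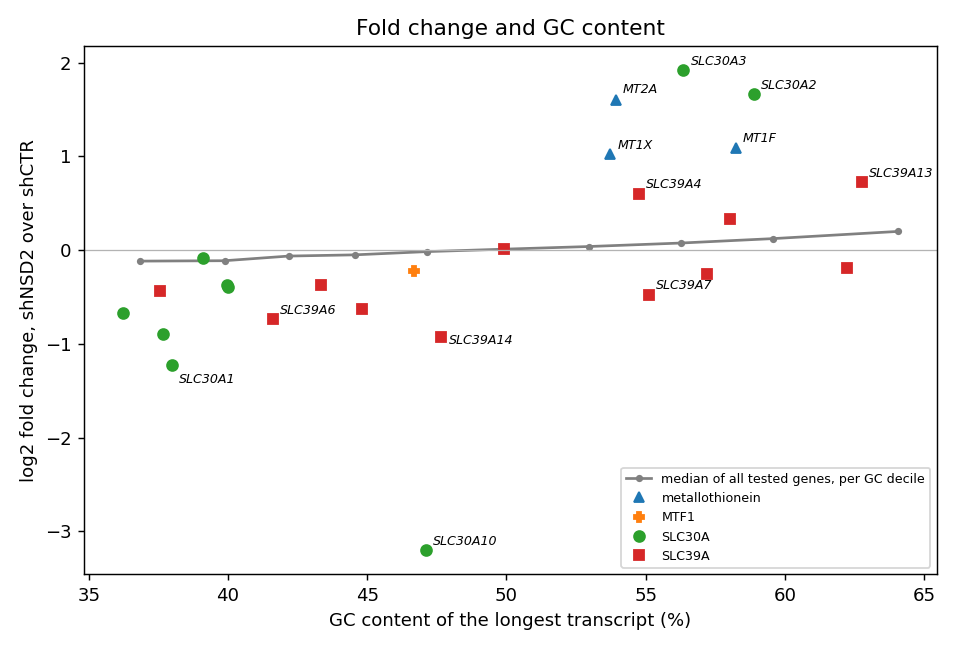
Log2 fold change of shNSD2 over shCTR (vertical axis) against GC content of the longest transcript (horizontal axis) for the 25 tested genes, by family, with the median of all tested genes in each GC decile as a grey line. The grey line runs from -0.12 to 0.20, and the metallothioneins lie above it at 1.02 to 1.60.

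Other genes that handle zinc were counted beside these families. Of 9 tested, 0 rose and 1 fell by edgeR, beside 15.5% and 15.2% of all genes, and 2 had an unadjusted p under 0.05. The one called, CBWD3 of a family of near-identical metallochaperone genes, had 5.61, 5.70 and 5.67 CPM in shNSD2 libraries and 8.80, 7.04 and 8.34 CPM in shCTR libraries (edgeR adjusted p = 0.0184), a call kept only without shCTR 2 or shCTR 4 among the fits with a library left out. CBWD2, a copy of the same family and the other gene with an unadjusted p under 0.05, had a positive log2 fold change of 0.21 (edgeR adjusted p = 0.0853), and reads of these copies may be split. MT3, the brain metallothionein, had at most 2 counts in a library. Of 13 tested genes that metals and oxidative stress induce, 2 rose and 0 fell, a count near the 15.5% of all genes that rose. Of these, TXN, which encodes the redox protein thioredoxin, had 201, 193 and 216 CPM in shNSD2 libraries and 109.5, 131 and 171 CPM in shCTR libraries (log2 fold change 0.57, SE 0.143, edgeR adjusted p = 0.0151). With a library left out the count that rose ran from 0, without shNSD2 3 or shCTR 2, to 7, without shCTR 4. The shares of all genes called higher in these 3 fits were 6.33%, 6.65% and 23.9%. HMOX1, a gene that cadmium strongly induces and that was chosen after its values were seen, overlapped between groups at 28.7 to 38.3 CPM in shNSD2 and 23.9 to 33.7 CPM in shCTR (edgeR adjusted p = 0.0903).

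Of 17 tested genes of copper and iron handling, 7 rose and 4 fell, beside 15.5% and 15.2% of all genes. The ferritin heavy chain gene FTH1, which stores iron, had 555, 454 and 479.6 CPM in shNSD2 libraries and 237, 301 and 325 CPM in shCTR libraries (log2 fold change 0.79, SE 0.134, edgeR adjusted p = 0.00322). The copper pump gene ATP7A had 34.9, 34.1 and 27.4 CPM in shNSD2 libraries and 68.6, 58.4 and 43.7 CPM in shCTR libraries (log2 fold change -0.83, SE 0.155, edgeR adjusted p = 0.00458). The transferrin receptor gene TFRC, chosen after its values were seen, had a log2 fold change of -1.03 (edgeR adjusted p = 0.00769). With a library left out, 1 to 7 of this list rose and 2 to 7 fell, with 1 rise left without shNSD2 3. Over these fits 6.33% to 23.9% of all genes were called higher and 7.49% to 22.6% lower.

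Glucocorticoids are a known inducer of MT2A. Of 9 tested glucocorticoid-inducible genes 3 rose and 2 fell, with 1 to 3 rising and 0 to 4 falling when a library was left out. The shares of all genes were 15.5% and 15.2% with all libraries. With a library left out they ran from 6.33% to 23.9% and from 7.49% to 22.6%. ERRFI1, a feedback inhibitor of EGF receptors, had a log2 fold change of 0.42 and TSC22D3, which encodes the leucine zipper GILZ, of 0.59 (edgeR adjusted p = 0.00506 and 0.0213). TSC22D3 had 254, 162 and 166 CPM in shNSD2 libraries and 124, 144 and 118 CPM in shCTR libraries, while FKBP5, chosen after its values were seen, overlapped between groups (log2 fold change -0.04, edgeR adjusted p = 0.812). NR3C1, the glucocorticoid receptor gene, had at most 4 counts in shNSD2 libraries and 0 in shCTR libraries, so its own change was not measured.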

How the data were processed

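The deposited table holds raw read counts per gene for 6 libraries, which the authors deposited without normalization, judged from whole numbers with different totals. Per the submitters' processing notes, CASAVA 1.8.2, STAR 2.6.0a and GRCh38 were used. No source used here gives the counting program, annotation or strand setting, so reads of overlapping and near-identical genes cannot be told apart.

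Titles gave each library's group. The test was edgeR's quasi-likelihood F test (edgeR 4.0.16, R 4.3.3, filterByExpr, TMM), with Benjamini-Hochberg adjustment over 17160 genes, and called at an adjusted p under 0.05. Each SE is the absolute log2 fold change over the root of F. CPM were TMM-scaled. Coordinates, exon length and GC content came from GENCODE 29, which held 31313 of the 31413 identifiers. Members and lists were chosen with earlier results of these data known. The text accounts for every member, with values per library for the tested metallothioneins, MTF1, SLC30A1 and the called members, and names from each other list the 2 called genes of smallest p, except that some genes of these lists are not reported here. Other genes were named after their values were seen.

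Alternatives were other scalings, DESeq2 1.42.0, limma-voom (limma 3.58.1), other filters, a replicate block, a GC and length offset (mgcv 1.9.3), summed metallothionein rows and each library left out. On simulated data with 16885 genes in the fit, 58 of 100 genes changed 1.5-fold and 83 of 100 changed 2-fold were recovered, with 10 false among 151 calls. Only those genes were changed, and every gene had the same dispersion (spread between libraries beyond counting error). No simulated control stood apart as shCTR 4 did, so these rates need not hold for the real libraries. Intervals and floors cover counting error only.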

Additional observations from a re-analysis of the deposited data

How the results depend on the processing

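Of the 25 tested genes, 13 kept their direction and their side of the threshold in each of the alternatives in which they were tested. Of these 13, 12 were called in each fit, and SLC39A5 in none. The 12 included SLC30A3 and SLC30A10, whose calls follow in part from the low-count filter that they passed through 1 group only. Also among the 12 were MT2A (log2 fold change 1.45 to 1.71), MT1X (0.89 to 1.16), SLC30A1 (-1.50 to -0.95), SLC39A14 (-1.08 to -0.75) and SLC39A6 (-0.83 to -0.61). Directions reversed for 2 genes that were not called: SLC30A9 stood at 0.10 under the GC and length offset, and SLC39A11 at -0.03 without shNSD2 1, -0.02 without shCTR 1 and -0.052 without shCTR 2, with a range of -0.052 to 0.12 over the fits with a library left out. The cause was not tested. With a library left out, 2436 to 8262 genes of the whole table were called, highest without shCTR 4, with 5 to 8 members higher and 7 to 14 lower, against 5263, 7 and 12 with all libraries. The share of all genes called ran from 13.8% to 46.5% over these fits. Under the other alternatives 4891 to 6243 genes were called, with 5 to 8 members higher and 9 to 13 lower. The 5 higher members came from the filter of at least 1 CPM in 3 libraries, which left 21 members tested, and from summing the metallothionein rows into 1. SLC30A4 was not called with upper-quartile factors, plain library size, limma-voom or no low-count filter (adjusted p = 0.0617, 0.0537, 0.0598 and 0.0530). SLC39A1 was called lower with DESeq2 size factors, the DESeq2 Wald test and the 1 CPM filter (adjusted p = 0.0484, 0.0437 and 0.0482).

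With the replicate number as a block, 6243 genes, 8 members higher and 12 lower were called, with SLC39A3 added (log2 fold change 0.46, adjusted p = 0.00162). In this fit shNSD2 3 and shCTR 4 each stood alone in a block, so the fold changes rest on replicates 1 and 2 alone. SLC39A3 was also called without shCTR 4. The numbers 1 and 2 are the only ones the groups share. The deviations of same-numbered libraries from their group means correlated at -0.05 and -0.06. The labels do not say whether same-numbered libraries belong together, and so few correlations cannot decide it. Under the block 6 stress-response genes rose and 0 zinc-handling genes fell, beside 18.9% of all genes higher and 17.5% lower. Under the GC and length offset 2 zinc-handling genes rose and 0 fell, beside 16.9% and 14.2% of all genes. With a library left out, 0 to 1 zinc-handling genes fell, 0 to 7 stress-response genes rose and 0 to 1 fell, 1 to 7 copper and iron genes rose and 2 to 7 fell, and 1 to 3 glucocorticoid-inducible genes rose and 0 to 4 fell. Across those fits 6.33% to 23.9% of all genes were called higher and 7.49% to 22.6% lower. The summed metallothionein log2 ratio was 1.39 to 1.64 with a library left out and 1.52 to 1.55 under other scalings. Genes under the floor of about 3 counts per library, such as MT1G, could not be compared at this depth.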
